A study of Mus musculus with 17 samples.

Results

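The deposited ATAC-seq table listed 3582 regions of mouse brain, each annotated there to the promoter of a named gene. Of these, 3537 had a tag value in all 3 columns, and 27.7% of the 3537 were centred within 1 kb of a transcription start in GRCm38. The 354 regions described here were those at or above the 90th percentile of the mean of the 3 columns, a mean tag value of 110.3. The members were therefore chosen by measured ATAC signal, and their high signal is a description and not a finding. The members just inside the limit carried the table gene names Ccdc57 (110.98), Slc22a16 (110.98) and Rbm28 (110.36), and those just outside it were Dyrk1a (110.26), Klhl9 (109.77) and Or10ad1c (109.62). ATAC-seq marks open chromatin, because a transposase cuts and tags DNA that is not wrapped or covered.

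All samples came from the brain of wild-type ICR mice. Healthy controls (sham) were sham-treated, the 6-OHDA-induced PD model was lesioned on one side of the substantia nigra with 6-hydroxydopamine at 8 weeks of age, and the NDST3-treated PD model received the same lesion and human NDST3 from an AAV9 vector under the CMV promoter, which is not restricted to one cell type. ATAC-seq had 1 library per group, so every difference in ATAC signal lacked a replicate check and no test was made on it. The depth behind the tag values is unknown. RNA-seq had 2 sham libraries, 1 6-OHDA library and 2 NDST3-treated libraries, with 51003699 to 70533326 counts per library. H3K27ac CUT&RUN had 2 samples per group but 1 value column per group. The labels do not say that the replicates came from separate animals, so p-values measure only the spread between these samples. The labels name no control vector for the 6-OHDA group, so effects of the vector and of NDST3 cannot be told apart. In whole tissue, fewer cells of a type and less RNA per cell cannot be told apart either.

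A promoter is the stretch of DNA around a transcription start site where the general transcription machinery assembles, and a nucleosome-depleted gap just upstream of the start makes it accessible to the transposase. Promoters of housekeeping genes, which most cell types use, are typically rich in G, C and CpG dinucleotides, lack a TATA box and carry sites for broadly expressed factors such as SP/KLF proteins, NFY, ETS factors, CREB and ZNF143. Genes of a single cell type more often rely on distal enhancers and on promoters that are open in that cell type alone.

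The sequences of 5 members with the strongest signal that lay upstream of the start of the gene they are named for, outside annotated exons, show the base composition the members shared. They were read from GRCm38 on the strand of the gene, 5′ to 3′, and capitals mark matches on either strand to the motifs searched below.

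Snd1, chr6:28480012-28480257, plus strand: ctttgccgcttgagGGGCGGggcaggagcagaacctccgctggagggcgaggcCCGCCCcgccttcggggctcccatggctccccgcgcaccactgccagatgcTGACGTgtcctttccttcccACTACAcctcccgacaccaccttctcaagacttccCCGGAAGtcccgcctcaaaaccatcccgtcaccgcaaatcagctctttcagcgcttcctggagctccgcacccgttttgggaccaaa

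Ripk2, chr4:16163676-16163775, minus strand: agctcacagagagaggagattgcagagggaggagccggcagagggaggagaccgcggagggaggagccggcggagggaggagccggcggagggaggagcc

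Rad23b, chr4:55349836-55349973, plus strand: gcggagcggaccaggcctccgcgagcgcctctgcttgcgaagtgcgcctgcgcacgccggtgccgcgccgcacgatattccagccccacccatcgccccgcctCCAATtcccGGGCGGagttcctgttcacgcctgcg

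Tars1 (Tars in GRCm38), chr15:11399671-11399770, minus strand: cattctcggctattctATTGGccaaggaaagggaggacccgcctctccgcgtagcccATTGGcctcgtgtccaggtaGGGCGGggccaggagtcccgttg

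Erp44, chr4:48279597-48279732, minus strand: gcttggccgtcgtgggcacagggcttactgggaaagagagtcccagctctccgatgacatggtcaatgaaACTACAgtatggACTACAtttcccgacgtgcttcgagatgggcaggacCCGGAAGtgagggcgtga

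The Snd1 region held 18 CpG dinucleotides in 246 bases with 2 GC boxes, an ETS site, a CRE core and an ACTACA core of the Ronin/ZNF143 motif. The Rad23b region held 20 CpG in 138 bases, and the Tars1 region paired 2 CCAAT boxes with 1 GC box. The Erp44 region held 2 ACTACA cores and an ETS site. The Ripk2 region, a repeated purine-rich run with a G and C content of 71%, held none of the motifs.

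Next come 3 members that lay at the start of a gene other than the one in the table. They had the largest signal ratios between the NDST3-treated PD model and sham among those of that kind that were centred upstream of the start and overlapped no annotated exon. They are shown because members at the start of another gene had a higher median ratio than those at the start of the gene named, with 1 library per group. The region at the Fbxo46 start held none of the motifs, with a G and C content of 51% and 4 CpG. Those at Fosb and Polb had 63.1% and 68%, with 2 GC boxes each.

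Fbxo46 start (Mir343 in the table), chr7:19119694-19119793, plus strand: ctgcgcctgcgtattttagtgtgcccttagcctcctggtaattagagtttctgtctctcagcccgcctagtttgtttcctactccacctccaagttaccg

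Fosb start (Zfp296 in the table), chr7:19310219-19310367, minus strand: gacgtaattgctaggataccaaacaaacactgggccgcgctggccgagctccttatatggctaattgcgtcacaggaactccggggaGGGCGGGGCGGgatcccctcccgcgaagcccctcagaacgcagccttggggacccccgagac

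Polb start (Nek3 in the table), chr8:22653452-22653551, minus strand: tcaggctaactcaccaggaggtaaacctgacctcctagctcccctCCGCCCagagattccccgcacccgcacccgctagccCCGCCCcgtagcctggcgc

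For contrast, the table's 2 regions named for Ncoa7, a nuclear receptor coactivator gene, were far below the limit, at rank 1969 and rank 2714 of 3537. They had a G and C content of 37% and 35%, with 0 and 2 CpG.

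Ncoa7, chr10:30679992-30680091, plus strand of the genome: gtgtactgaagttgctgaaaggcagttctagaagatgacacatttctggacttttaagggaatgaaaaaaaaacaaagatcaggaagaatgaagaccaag

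Ncoa7, chr10:30680182-30680281, plus strand of the genome: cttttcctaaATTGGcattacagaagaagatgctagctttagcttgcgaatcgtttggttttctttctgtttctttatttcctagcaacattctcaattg

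The first Ncoa7 region had tag values of 14.8 in sham, 14.5 after 6-OHDA and 16.5 after 6-OHDA with NDST3. The second had 11.86, 6.75 and 9.87. The nearest annotated GRCm38 starts of any gene were 6814.5 and 7004.5 bases away. The nearest GRCm38 starts of Ncoa7 itself were 24174.5 and 24364.5 bases away, so these regions do not describe its promoter. No region was named for Th, the tyrosine hydroxylase gene of dopaminergic neurons.

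The strongest members lay at the starts of genes of varied function. The region of Snd1, a staphylococcal nuclease domain protein that binds RNA, had tag values of 849.48 in sham, 862 after 6-OHDA and 924.7 after 6-OHDA with NDST3. That of Ripk2, a kinase of innate immune signalling, had 855.58, 920.5 and 851.83. That of Rad23b, a ubiquitin receptor of DNA repair and protein breakdown, had 807.48, 903 and 906.86. Each of the 3 regions was above all other members in every column.

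The other members of the strongest 10 were, by the gene at their start, Lmbrd2 (named Skp2 in the table, a divergent pair), Rnf20 (named Gm45952), Capza2, Tars, Otud6b, Erp44 and Rab18. Rnf20 is a histone H2B ubiquitin ligase, Capza2 caps actin filaments, Tars is a threonyl-tRNA synthetase, Otud6b is a deubiquitinase, Erp44 retains proteins in the early secretory pathway and Rab18 is a small GTPase of lipid droplets and the endoplasmic reticulum. Their mean tag values ran from 604.47 for Rab18 to 726.95 for Lmbrd2. Neighbouring members often covered one promoter in pieces, so that the 354 regions formed 293 clusters at a gap of 1 kb. As many as 55 gene names had more than 1 member, and Pot1a, a telomere-protection gene, had 3 with mean values of 510.54, 398.07 and 343.95. Among names with 2 members, the strongest were Ripk2 (876 and 602 in mean value), Rad23b (872 and 346), Bag1, a chaperone cofactor (542 and 473), Rab18 (604 and 384) and C1galt1, a galactosyltransferase of protein glycosylation (574 and 367).

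The members took up 52.8% of the summed tag value of all regions in sham, 54.9% in the lesioned group and 54.8% after NDST3. Their median tag values were 161.9, 198.2 and 224, against 15.2, 15.2 and 16.6 for the other 3183 regions.

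The place of a region in the genome was not used to choose the members, and it set them apart. Of the 354 members, 330 (93.2%) were centred within 1 kb of a transcription start annotated in GRCm38, against 651 (20.5%) of the other regions. The median distance to the nearest start was 81 bases for members and 10590.5 bases for the other regions, and 56.5% of members against 5.44% of other regions lay within 100 bases. Of the members at a start, 184 were centred upstream of it and 146 at or downstream of it. Annotated exons overlapped 252 members (71.2%) and 21.0% of the other regions.

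The share of regions at a start fell with signal, from 93.2% among the members to 56.5%, 32.2% and 17.0% in the next 3 groups of like size by rank, and it stayed between 10.2% and 15.5% in the 6 weakest. The share thus fell in steps below the limit. These shares describe 1 table, in which neighbouring regions can share a promoter, and no test was made on them.

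**Figure D1:**
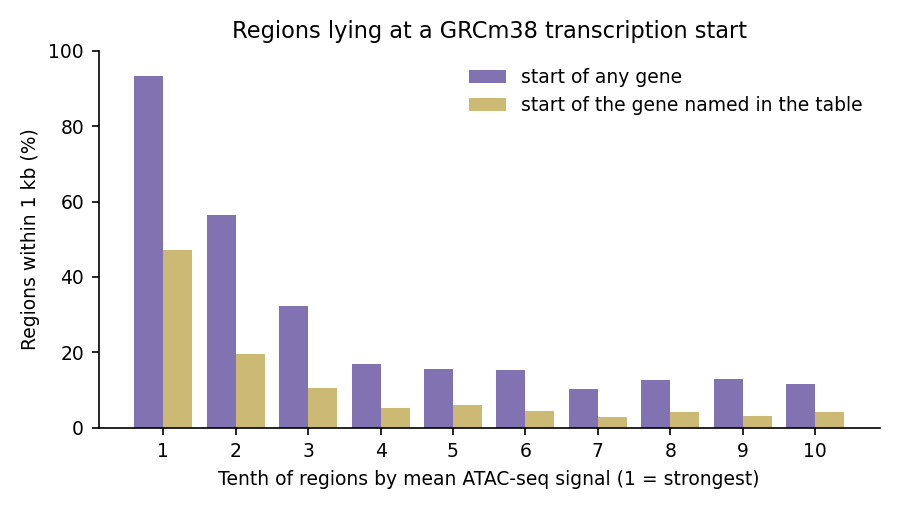
Share of ATAC regions within 1 kb of a GRCm38 transcription start (percent), for 10 groups of like size of the 3537 regions ordered by mean tag value. The members stood at 93.2% and the next group at 56.5%, and the weakest 6 groups were all at or below 15.5%.

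The gene and distance columns of the table did not describe these places well. Only 167 members (47.2%) lay within 1 kb of a GRCm38 start of the gene the table named, 163 (46.0%) lay at the start of another gene and 24 (6.78%) lay at none, whereas among the other regions these shares were 6.69%, 13.8% and 79.5%. The table's own distance column had a median of -84.5 bases for members and -344 bases for the other regions. The gene names and the tag positions thus did not match in GRCm38 for most regions, and the build behind the names is not given in the sources used here.

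Examples of members whose names differed included regions named Ghrl, Vmn1r220, Zfp219, Bach1, Clcn2 and Kdr. They lay at the starts of Tatdn2, Zfp322a, Chd8, Cct8, Ap2m1 and Srd5a3, in that order. Kdr, a receptor of endothelial cells, was the only gene of the endothelial list named for a member, and the region itself was at Srd5a3, a gene of dolichol synthesis. In what follows the gene of a member is the one that starts there in GRCm38, a choice made after the positions were compared.

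The match between name and place differed along the genome. Chromosomes 4, 6, 15 and 18 held 191 members (54.0%) and 26.3% of all regions. Chromosome 4 had 93 members among 313 regions, 81 of them at the start of the gene named, and chromosome 3 had 4 members among 249 regions. In the first 60 Mb of chromosome 4, 85 of 184 regions were members and 168 of the 184 lay at the start of the gene named. Of all regions at the start of their named gene 43.9% were members, of those at the start of another gene 27.1%, and of those at none 0.939%.

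The 24 members at no annotated start were led by a region named Slc6a20b with tag values of 339.19 in sham, 396.75 after 6-OHDA and 390.05 after 6-OHDA with NDST3. The next, named Gm8273, had 256.36, 315.5 and 333.1. As a group they were weaker, with a median sham value of 115 against 215 for members at the start of the gene named and 134 for members at the start of another gene.

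Divergent starts, where 2 protein-coding genes on opposite strands begin within 1 kb of the region, were found at 45 of 328 members with a protein-coding start (13.7%) and at 38 of 522 other such regions (7.28%). Bag1 and Chmp5 shared such a start, as did Skp2 and Lmbrd2. Members were also wider, with a median of 132 bases against 100, although 34.7% of them and 66.4% of the other regions were exactly 100 bases wide, the least that occurs in the table.

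The members were rich in G, C and CpG. Over the central 100 bases of 329 members, excluding the 25 on chromosome 18, the median G and C content was 66% and the median CpG count was 9, against 48% and 1 for the other regions. The ratio of observed to expected CpG was 0.864 in members and 0.239 in other regions. Only 2 members (0.608%) held no CpG, against 30.4% of the others. Other regions that also lay at a start were in between, with a G and C content of 56% and a CpG count of 4. Members at the start of another gene than the one named had a composition close to that of those at the named gene's start, 67% against 66.5%, whereas the members at no start had 55%.

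The motifs searched on both strands were the GC box of SP/KLF proteins (GGGCGG), the CCAAT box of NFY (CCAAT), the ETS site (CCGGAAG), the NRF1 core (GCGCATGC), the YY1 site (AAGATGGC), the CRE (TGACGTCA) and its core (TGACGT, which every CRE also contains), an E-box (CACGTG), the TATA box (TATAAA), the ZBTB33 core (TCTCGCGA) and the Ronin/ZNF143 core (ACTACA). A GC box was found in 42.2% of members, 18.3% of other regions at a start and 2.56% of other regions away from any start. An ETS site was found in 7.90%, 2.23% and 0.330% of these groups. The CRE core was found in 6.38%, 2.07% and 0.948%. The order was reversed for the TATA box, which was found in 1.52%, 3.35% and 5.93%. The CCAAT box varied less, at 16.1%, 10.2% and 12.1%, and the ACTACA core was found in 3.95%, 2.71% and 3.79%.

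The RefSeq promoter sequences of GRCm38 were searched for the same motifs, at genes that the ATAC regions had chosen. The table held 263 promoters of 208 genes that start at a member and 32851 promoters in all, each spanning 250 bases before to 50 after a start. A GC box was found in 73.8% of the promoters of member genes and 35.7% of all promoters, an ETS site in 22.8% and 8.86%, and the CRE core in 16.3% and 7.51%. A TATA box was found in 6.84% and 13.6%. The YY1 site was found in 1.82% of members and 0.458% of the other regions, but in 2.28% of the promoters of member genes and 2.75% of all promoters. Of the 11 motifs 9 were more frequent in promoters of member genes, and a match describes letters and not the binding of a factor.

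**Figure D2:**
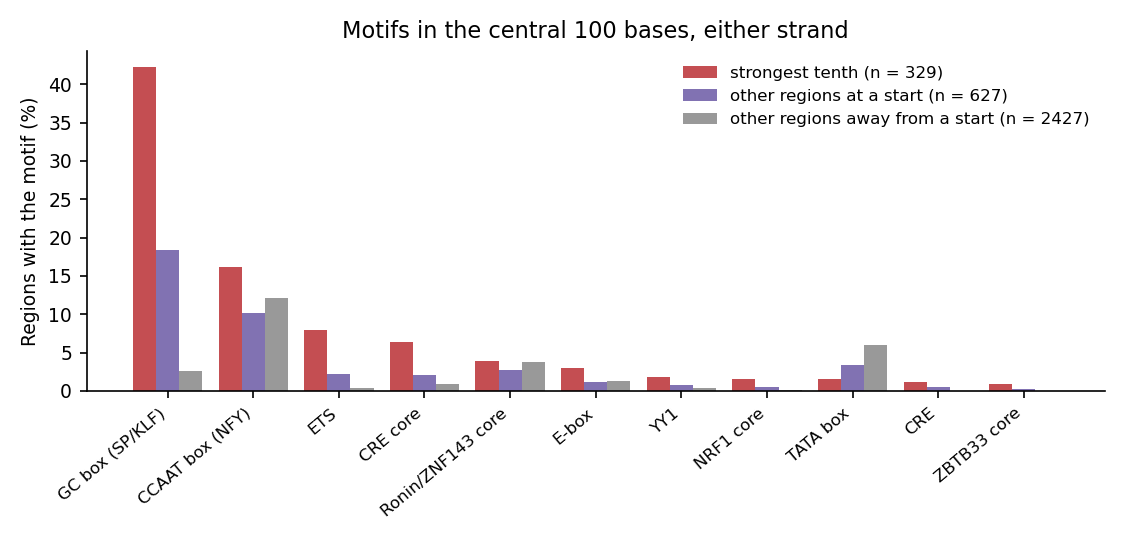
Share of regions (percent) whose central 100 bases hold each motif on either strand, for members, other regions at a start and other regions away from a start. The GC box is at 42.2% of members and 2.56% of regions away from a start, and the TATA box runs the other way, from 1.52% to 5.93%.

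The members' genes were expressed at high levels in all 5 RNA-seq libraries. The 330 members at a start belonged to 273 genes, 271 of them protein-coding, and 267 were in the RNA-seq table and all 267 passed the filter on low counts. The median level was 30.2 and 30.8 TPM in the sham libraries, 26.4 TPM in the 6-OHDA library and 29.4 and 29.6 TPM in the NDST3-treated libraries, where TPM, a share of transcripts, scales for transcript length. Over all 20328 genes listed the medians were 9.37 to 10.3 TPM, and over genes that start at one of the other ATAC regions 13.2 to 14.3 TPM.

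At least 1 TPM was reached by 98.1% to 99.3% of the members' genes and by 75.9% to 77.8% of all genes. Genes that the table named for a member but that start elsewhere had medians of 14.3 to 17.5 TPM, close to those of the other regions' genes. The level was thus higher for genes at the position of the region than for genes that the table only named. The medians of the latter were still above those of all genes, and these differences were not tested. The genes under 1 TPM in every library were Ccdc105 and Plag1.

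**Figure D3:**
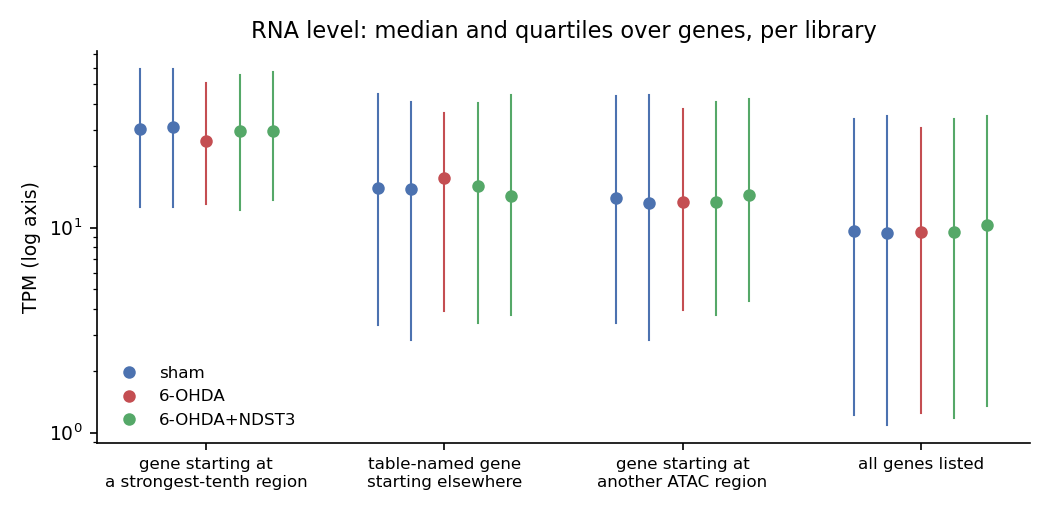
Median (point) and quartiles (line) over genes of the level in TPM on a log axis, in each of the 5 RNA-seq libraries, for the 267 genes that start at a member, genes named for a member that start elsewhere, genes that start at other regions and all genes listed. The members' median is between 26.4 and 30.8 TPM in every library and that of all genes between 9.37 and 10.3 TPM.

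A larger share of the members' genes than of all genes was found in every cluster of single-cell RNA-seq, for which mean values of 9 clusters of cells were used from both lesioned groups, on a scale that the table does not state. At a mean above 0.1, 111 of 263 member genes (42.2%) were detected in all 9 clusters after 6-OHDA and 118 (44.9%) after 6-OHDA with NDST3. Over all 26650 genes listed the shares were 13.3% and 13.6%, and over genes starting at other ATAC regions 15.4% and 15.7%. Each group had 1 library, and detection of this kind depends on the level of a gene.

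The gene lists chosen for this work placed 36 of the members' genes in 12 of 23 lists. RNA-seq held 90 ribosomal protein, 74 chaperone, 78 oxidative phosphorylation and 452 zinc finger genes of these lists. It also held 211 ubiquitin enzyme, 142 RNA-processing, 26 immediate early and 86 cell cycle genes. Of all 20328 genes listed there, 267 start at a member. Whether any list was over-represented was not tested. Protein-making and protein-folding genes included the ribosomal proteins Rpl30, Rpl28, Rpl27 and Rps26 and the chaperones Cct8, Cct5, Dnaja1 and Dnajb3. Respiratory chain subunits were Ndufa4, Ndufa5 and Ndufb6, and 9 genes encoded zinc finger proteins, among them Zbtb5, Zfp189, Zfp322a and Zfp622. Ubiquitin enzymes were Rnf20, Ube2j1, Fbxo46 and Usp14, RNA-processing proteins were Ddx21, Srsf6 and Rbm28, immediate early genes were Nr4a3, Fosb and Klf4, and cyclins were Ccnc and Ccne2. Mrpl51 of the mitochondrial ribosome, Psmc4 of the proteasome, Tars and the repair gene Xpa were the single members of their lists.

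None of the 108 genes in 7 lists of cell type markers (neurons, dopaminergic neurons, astrocytes, oligodendrocytes, microglia, endothelial cells and lymphocytes) began at a member. The whole ATAC table covered few of them, since 13 were named in it and only Apoe had a region at its GRCm38 start, with mean tag values of 26.1 and 9.26. The lists of translation factors, histones, lysine acetylation enzymes and inherited Parkinson disease genes likewise held no member gene. The ATAC table named only 6, 10, 3 and 3 genes of these lists, in that order.

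The signal of the members was higher after 6-OHDA than in sham by a median log2 ratio of 0.25, against 0.11 over all 3537 regions. It was higher in 308 members (87.0%), where 57.7% of all regions were higher. The next group of like size by rank also had a median of 0.25, and other regions at a start had 0.26. This median was therefore not particular to the members. A ratio of at least 2-fold was reached upward by 1 member and downward by 0, while the background was 6.19% of all regions upward and 6.87% downward. At 1.5-fold 42 members (11.9%) were higher and 0 lower, against 19.1% and 15.4% of all regions. Of the 462 regions past 2-fold in this comparison, 382 had a mean signal below the median of all regions, 17.3, so that large ratios were found mainly among weak regions.

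Between the NDST3-treated and the 6-OHDA-induced PD model the median log2 ratio was 0.12 for members and 0.11 for all regions. It was 0.14 in the next group by rank and 0.12 for other regions at a start. Higher values were found in 292 members (82.5%) and 58.9% of all regions, and 0 members changed by 2-fold in either direction, against 5.88% of all regions upward and 4.47% downward. Once each column was divided by its median over all regions, the members' median was -0.0063. That division subtracts the same constant from the log2 ratio of every region, and how the columns were scaled is not stated.

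Between the NDST3-treated PD model and sham the median log2 ratio was 0.41 for members and 0.21 for all regions. It was 0.41 in the next group by rank too, and 0.38 for other regions at a start. Higher values were found in 327 members (92.4%) and 62.7% of all regions. The 2-fold mark was reached upward by 7 members and downward by 0, against 10.0% of all regions upward and 7.15% downward. With the columns divided by their medians this median was 0.27, and 1 member reached 2-fold. In the values as deposited, sham was lowest and the NDST3-treated PD model highest in 253 members (71.5%), an order found in 31.0% of all regions. This order depends on the scaling of the columns, since the members' median against 6-OHDA was -0.0063 after the division. Its share was not taken in the next group by rank or in other regions at a start, so it is not shown to be particular to the members.

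**Figure D4:**
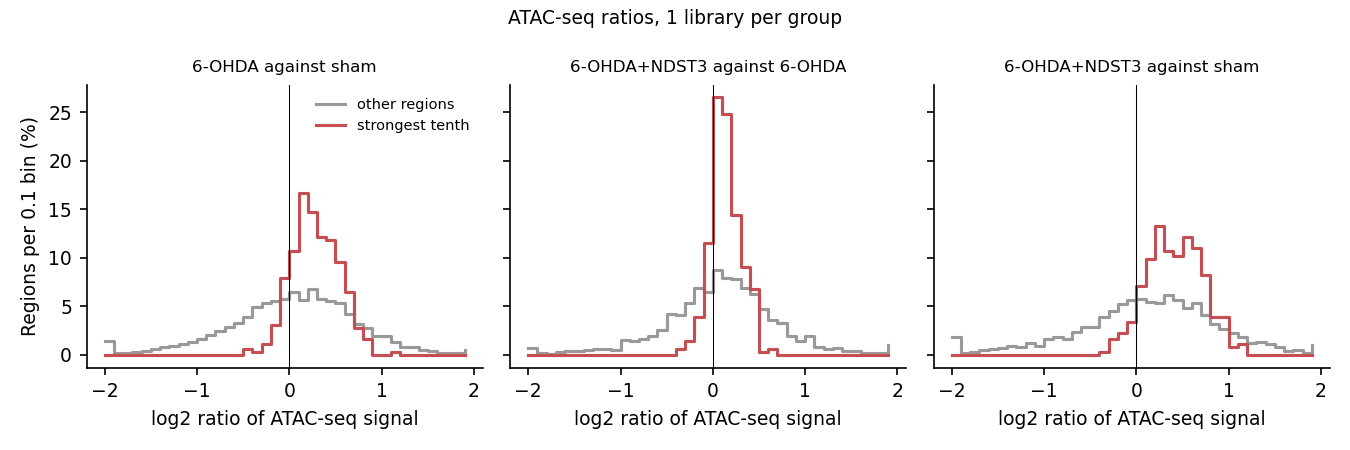
Distribution of log2 ATAC signal ratios in the 3 comparisons, as the share of regions per bin (percent), for the 354 members and the other 3183 regions, with values beyond the axis counted in the end bins. Members lie in a narrower band, mostly to the right of 0, with medians of 0.25, 0.12 and 0.41, and the other regions spread wider on both sides of 0.

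The ratios differed by the place of the region. Against sham, members at the start of the gene named had a median log2 ratio of 0.16 after 6-OHDA and 0.26 after 6-OHDA with NDST3. Members at the start of another gene had 0.42 and 0.61, and members at no start 0.29 and 0.40. The sham medians of these groups were 215, 134 and 115 tag units, so that the groups differed in level as well as in ratio. On chromosome 4 alone, where both kinds occur, 81 members at the start of the gene named had 0.21 and 0.32, and 11 at the start of another gene had 0.35 and 0.70.

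The largest ratio of the 6-OHDA-induced PD model to sham was at the start of Tent4b, a non-canonical poly(A) polymerase gene, in a region named Cbln1os. Its tag values were 62.17 in sham, 142.25 after 6-OHDA and 133.91 after 6-OHDA with NDST3. The next were at the starts of Kansl1 (named Myl4), Pgp (named Ccnf), Nosip (named Ntf5) and Polb (named Nek3). At Polb, the gene of the base-excision repair polymerase whose region is printed above, the values were 94.65, 170.75 and 185.65.

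The lowest 6-OHDA to sham ratios were of regions named Rfx6, Ttpa, Marchf11, Smim30 and Trp53inp1. At Ttpa, which encodes the alpha-tocopherol transfer protein, the values were 141.19 in sham, 103.5 after 6-OHDA and 114.05 after 6-OHDA with NDST3. The Rfx6 region, 2269.5 bases from the nearest start, had 154.91, 112.25 and 130.58. Their log2 ratios, -0.46 for Rfx6 and -0.45 for Ttpa, were smaller in size than the 1.19 at Tent4b.

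From the 6-OHDA-induced to the NDST3-treated PD model the largest ratios were at the starts of Tbc1d10a (named Osm), Rps26 (named Mmp19), Dnajb3 (named Hjurp), Ruvbl2 (named Lmtk3) and Fam13b (named Reep5). At Tbc1d10a, a GTPase-activating protein gene, the values were 117.44 in sham, 134.25 and 209.77. At Rps26 they were 107.94, 106.25 and 163.86. The lowest ratios were at Ecpas, Ggh, Anks6, Kbtbd3 and a region named Esp16, and Ecpas, a proteasome adaptor gene, had 100.35, 174.25 and 135.1.

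Against sham, the NDST3-treated PD model had its largest ratios at Ruvbl2, Fbxo46, where 2 regions named Mir343 had similar values, Nosip and Tent4b. Ruvbl2, a component of chromatin-remodelling complexes, had 123.5 in sham, 197.5 after 6-OHDA and 279 after 6-OHDA with NDST3. The printed Fbxo46 region had 109.26, 185.25 and 239.57, and the printed Fosb region 88.82, 130.5 and 182.1. The lowest ratios were of Ttpa, Tram1, Rfx6, 1110019D14Rik and C87198.

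RNA of the members' genes was tested with edgeR's quasi-likelihood test, adjusted over all 19300 genes tested. Between the 6-OHDA-induced PD model and sham, 54 of 267 genes (20.2%) were higher, where the background over all genes was 18.8%. Another 44 (16.5%) were lower, where the background was 17.1%. These shares were near the background, and the median log2 fold change was -0.06 for members' genes and -0.0025 for all genes. At 2-fold with an unadjusted p under 0.05, 19 genes (7.12%) were higher and 8 lower, against 14.4% and 10.1% of all genes. At an unadjusted p under 0.05 alone, 63 (23.6%) and 60 (22.5%) were higher and lower, against 24.6% and 23.2%. The 6-OHDA group had 1 library, so the spread came from the other groups, and 0 calls remained when either sham library was left out.

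Markers of whole cell classes moved in the same comparison, and all 21 neuron genes reached 1 TPM in every library. Of 21 neuron genes 20 were lower in the 6-OHDA-induced PD model, with a summed level of 10767 and 11573 TPM in sham, 3739 TPM in the 6-OHDA library and 9098 and 8428 TPM in the NDST3-treated libraries. Of 17 microglia and macrophage genes 16 were higher, at 1746 and 948 TPM in sham, 16244 TPM in the 6-OHDA library and 5340 and 8259 TPM after NDST3, none of them at 0 in any library. Of 16 dopaminergic genes 15 were lower, with a summed level of 1246 and 1161 TPM in sham, 181 TPM in the 6-OHDA library and 446 and 392 TPM after NDST3. Of 14 endothelial and mural genes 10 were higher (443 and 334, 843, then 269 and 339 TPM), of 14 astrocyte genes 7 were higher and 1 lower (15187 and 11520, 46697, then 22919 and 30257 TPM), of 13 oligodendrocyte genes 5 were higher (14676 and 13413, 14897, then 14638.5 and 11374 TPM), and of 5 lymphocyte genes 2 were higher (8.03 and 5.73, 47.7, then 17.4 and 28.9 TPM). The part of these shifts in the values below was not tested.

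The largest rise among members' genes was that of Abca1, which exports cholesterol from cells and is used by microglia and astrocytes. Its level was 21.8 and 15.4 TPM in sham, 119 TPM in the 6-OHDA library and 47.6 and 69.2 TPM in the NDST3-treated libraries. The log2 fold change was 2.88 (SE 0.28, edgeR adjusted p = 0.00823), and the 6-OHDA value lay above all others. The region at its start had tag values of 148.99, 198 and 198.61.

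Scamp2, a membrane protein of secretory carriers, was at 27.7 and 23.7 TPM in sham, 94.8 TPM in the 6-OHDA library and 40.2 and 52.5 TPM after NDST3. Its log2 fold change was 2.06 (SE 0.19, edgeR adjusted p = 0.00823). Matn2, a matrix protein gene, rose by 2.04 on the log2 scale (adjusted p = 0.0268), Mms22l, a replication-repair gene at levels of 0.457 to 2.04 TPM, by 1.95 (adjusted p = 0.0255) and Rab3il1, an exchange factor gene for Rab3, by 1.78 (adjusted p = 0.00823). In all 5 the 6-OHDA library was the highest of the libraries.

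The largest fall was that of Cbln1, a synapse organizer secreted by neurons. Its level was 61.9 and 54.1 TPM in sham, 14.2 TPM in the 6-OHDA library and 39.7 and 56.2 TPM in the NDST3-treated libraries. The log2 fold change was -1.84 (SE 0.24, edgeR adjusted p = 0.00909). The region at its start, named Siah1a, had tag values of 108.68 in sham, 166.5 after 6-OHDA and 176.56 after 6-OHDA with NDST3, so its signal was higher in both lesioned groups than in sham.

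Ankrd6, an ankyrin-repeat gene of Wnt signalling, was at 29.1 and 29.1 TPM in sham, 8.06 TPM in the 6-OHDA library and 21.6 and 23.6 TPM after NDST3. Its log2 fold change was -1.59 (SE 0.13, edgeR adjusted p = 0.00823). Reep6, a membrane-shaping protein gene, fell by 1.36 on the log2 scale (adjusted p = 0.0244), and Ppfia3, a liprin of the presynaptic active zone, fell by 1.16 (adjusted p = 0.00823). Btbd8 had a log2 fold change of -1.247 (adjusted p = 0.0481), a call that was lost with DESeq2 (adjusted p = 0.0612), without the filter on low counts (0.0563), with only the groups compared (0.0691) and without either NDST3-treated library (0.0664 and 0.0700). The tag values of the members at Ankrd6, Reep6, Btbd8 and Ppfia3 were all higher after 6-OHDA than in sham, for example 99.34 and 155.5 at Ppfia3. This direction, seen at Cbln1 too, was that of 308 of the 354 members (87.0%), so it does not set these genes apart.

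Among the strongest 10 members, the genes that passed the test were Ripk2, Capza2 and Erp44. Ripk2 was at 3.32 and 3.79 TPM in sham, 9.09 TPM in the 6-OHDA library and 5.34 and 7.25 TPM after NDST3, with a log2 fold change of 1.51 (SE 0.25, edgeR adjusted p = 0.0128). Capza2 rose by 0.73 on the log2 scale (adjusted p = 0.0191) and Erp44 by 0.45 (adjusted p = 0.0249). Snd1, behind the region with the highest mean signal, was at 59.1 and 60.4 TPM in sham, 55.6 TPM in the 6-OHDA library and 56.7 and 63.4 TPM after NDST3 (log2 fold change 0.09, SE 0.10, edgeR adjusted p = 0.511).

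By list, 3 of the 4 ribosomal protein genes were higher after 6-OHDA than in sham and 0 lower, where the background was 18.8% and 17.1% of all genes. Of all 90 ribosomal protein genes tested 76 were higher and 0 lower, with a median log2 fold change of 0.79, so the count of members was like that of the list as a whole. Rps26 was at 433 and 410 TPM in sham, 676 TPM in the 6-OHDA library and 505 and 515 TPM after NDST3 (log2 fold change 0.88, SE 0.10, edgeR adjusted p = 0.00823). Rpl27 was higher by 0.77 (adjusted p = 0.00911) and Rpl28 by 0.58 (adjusted p = 0.0127), while Rpl30 had 0.59 (adjusted p = 0.109). Ribosomal protein genes have many near-identical copies, so reads may be divided among them.

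The counts by list that follow stand against a background of 18.8% higher and 17.1% lower over all genes. Of 3 RNA-processing genes 2 were higher, the helicase gene Ddx21 by 0.99 on the log2 scale (edgeR adjusted p = 0.00832) and the splicing factor gene Srsf6 by 0.46 (edgeR adjusted p = 0.0499). The call of Srsf6 was lost with limma (adjusted p = 0.0817), with DESeq2's size factors in edgeR (0.0551), without the filter on low counts (0.0642), with only the groups compared (0.0596) and without either NDST3-treated library (0.0592 and 0.0587). Of all 142 RNA-processing genes tested 33 were higher and 13 lower. Of 3 immediate early genes 1 was higher, Klf4 by 0.96 (adjusted p = 0.0237), and of 2 cell cycle genes 1, Ccnc by 0.60 (adjusted p = 0.0403, and 0.232 with limma). In the whole lists 14 of 26 immediate early genes were higher and 1 lower, and 30 of 86 cell cycle genes were higher and 14 lower. Of 4 ubiquitin enzymes 2 were lower, Ube2j1 with a log2 fold change of -0.60 (adjusted p = 0.0209) and Usp14 with -0.59 (adjusted p = 0.0223). Of 9 zinc finger genes 1 was lower, Zfp622 with -0.50 (adjusted p = 0.0304). In these whole lists 59 of 209 ubiquitin enzymes were lower and 25 higher, and 66 of 448 zinc finger genes were lower and 25 higher. The 3 oxidative phosphorylation genes had log2 fold changes of -0.31, -0.38 and -0.41 and the 4 chaperone genes held no call, as did the single members of their lists.

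Between the NDST3-treated and the 6-OHDA-induced PD model, 18 of 267 genes (6.74%) were higher and 22 (8.24%) lower, where the background was 9.06% higher and 6.59% lower. The median log2 fold change was 0.02 for members' genes and 0.0029 for all genes. At 2-fold with an unadjusted p under 0.05, 4 genes were higher and 8 lower, against 7.30% and 8.37% of all genes, and at an unadjusted p alone 53 (19.9%) and 50 (18.7%), against 19.5% and 18.5%. With limma on log2(FPKM + 1) the split was 28 higher and 13 lower. The share of all genes called by limma is not given here, so that split has no background beside it. The edgeR shares at an adjusted or unadjusted p alone were close to the background, and those with the 2-fold mark were below it. The calls depended on which sham and NDST3-treated libraries were in the fit. Of the 21 neuron genes 16 were higher in this comparison, of the 16 dopaminergic genes 6 were higher, and of the 14 endothelial and mural genes 11 were lower. Of the 14 astrocyte genes 1 was lower, of the 13 oligodendrocyte genes 3 were lower, and 0 of 17 microglia and macrophage genes and 0 of 5 lymphocyte genes were called. The part of these shifts in the values was not tested.

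The largest rises were of Cbln1, by 1.60 on the log2 scale (adjusted p = 0.0336), Ankrd6, by 1.31 (adjusted p = 0.0320), Cep126, by 1.16 (adjusted p = 0.0356), Snx32, by 0.89 (adjusted p = 0.0320), and Ppfia3, by 0.88 (adjusted p = 0.0320). Cep126, a centrosome and cilium gene, was at 5.86 and 7.20 TPM in sham, 2.51 TPM in the 6-OHDA library and 7.05 and 6.82 TPM after NDST3. Snx32, a sorting nexin gene, was at 86.5 and 83.4 TPM in sham, 36.2 TPM and then 74.4 and 78.1 TPM. In both the 6-OHDA library was the lowest of the libraries.

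The largest falls were of Klf10, Klf4, Scamp2, Rab3il1 and Tln1. Klf10, a TGF-beta-inducible transcription factor, was at 5.03 and 5.59 TPM in sham, 13.5 TPM in the 6-OHDA library and 5.63 and 6.97 TPM after NDST3, and fell by 1.254 on the log2 scale (adjusted p = 0.0341). Klf4, a transcription factor of the same family, was at 6.97 and 5.65 TPM in sham, 10.7 TPM and then 4.84 and 5.56 TPM, and fell by 1.198 (adjusted p = 0.0361). Scamp2 fell by 1.19 (adjusted p = 0.0341), Rab3il1 by 1.03 (adjusted p = 0.0353) and Tln1, which encodes talin of integrin adhesions, by 0.97 (adjusted p = 0.0456). The call of Tln1 was lost with limma (adjusted p = 0.0691) and without the filter on low counts (0.0524).

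In the lists, Rpl27, Rpl28 and Rps26 were lower after NDST3, with log2 fold changes of -0.52, -0.44 and -0.56 (edgeR adjusted p = 0.0405, 0.0461 and 0.0361). Ddx21 was lower too, with -0.65 (adjusted p = 0.0355) and Ube2j1 higher by 0.56 (adjusted p = 0.0467). With limma the calls of Rpl27, Rpl28 and Ddx21 were lost (adjusted p = 0.0546, 0.0562 and 0.0554). Of all 90 ribosomal protein genes 47 were lower and 0 higher, of 142 RNA-processing genes 9 and 5, and of 209 ubiquitin enzymes 5 and 34, where the background was 6.59% lower and 9.06% higher. The 2 comparisons share the single 6-OHDA library, so values that move one way in the first and back in the second are not independent.

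**Figure D5:**
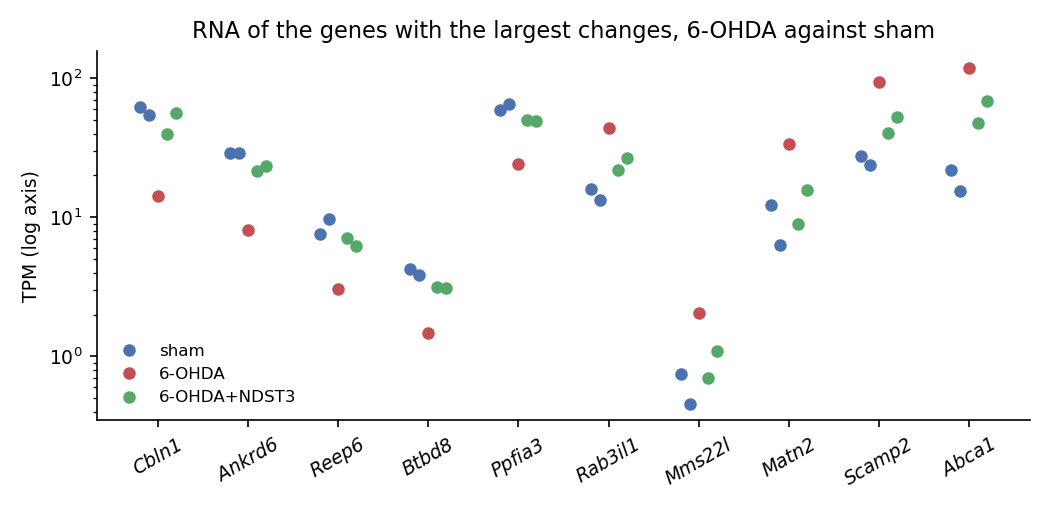
TPM on a log axis of the 10 member genes with the largest RNA changes between the 6-OHDA-induced PD model and sham, with 1 point for each of the 5 RNA-seq libraries, coloured by group. The 6-OHDA library is the lowest point for Cbln1, Ankrd6, Reep6, Btbd8 and Ppfia3 and the highest for Rab3il1, Mms22l, Matn2, Scamp2 and Abca1.

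Between the NDST3-treated PD model and sham, edgeR called 0 of 267 members' genes higher and 0 lower, where the background was 0 of 19300 genes (0 percent) in each direction. At an unadjusted p under 0.05, 25 genes (9.36%) were higher and 9 (3.37%) lower, against 9.82% and 4.39% of all genes. With a 2-fold mark added, 1 gene was higher and 0 lower, against 4.78% and 1.08% of all genes. DESeq2 called 8 genes and limma 0, counts given without the share over all genes under those methods. The median log2 fold change was 0.03 for members' genes and 0.0099 for all genes.

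H3K27ac, an acetylation of histone H3 found at active promoters and enhancers, was compared by position and by gene. At least 1 base was shared with an H3K27ac region by 78 members (22.0%), by 9.46% of the other regions and by 10.6% of other regions at a start. The gene starting at the region was named in the H3K27ac table for 200 members (56.5%) and for 32.4% of other regions at a start. These sets differ, since a protein-coding start lay at 328 of the 354 members and at 522 of those 651 regions. Only 10.8% of the H3K27ac regions lay within 1 kb of a GRCm38 start and 2 of the contig names in their table are absent from GRCm38.p6, so the counts by position may not compare like places. Only 3.84% lay within 1 kb of a GRCm38 start of the gene named for them. The counts and ratios by gene name may therefore not describe the promoters of those genes.

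The 162 members' genes named there had 291 H3K27ac regions, with median signals of 15.7 in sham, 16.4 after 6-OHDA and 22.9 after 6-OHDA with NDST3. All 11424 H3K27ac regions had 14.9, 16.4 and 22.9. The median log2 ratios were 0.13, 0.40 and 0.52 for members' genes and 0.12, 0.39 and 0.53 for all regions, for 6-OHDA against sham, NDST3 against 6-OHDA and NDST3 against sham. The regions named for members' genes therefore had H3K27ac ratios like those of the table as a whole, in columns with no replicates.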

How the data were processed

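The authors sequenced ATAC-seq, RNA-seq, H3K27ac CUT&RUN and single-cell libraries of mouse brain. ATAC reads were trimmed with Trim Galore, aligned with Bowtie2 to mm10, stripped of mitochondrial reads and Picard duplicates, called as broad peaks with MACS2 at the human genome size and annotated with ChIPseeker. The deposited ATAC and CUT&RUN tag columns are signal values whose scaling is not stated. The authors aligned RNA-seq with HISAT2 and quantified it with StringTie, and deposited read counts, FPKM and TPM. The deposited single-cell tables hold a score per gene and cluster, headed as a mean count, whose scale is not stated.

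Members and lists were chosen with earlier results of these data known. Named genes are the 10 strongest members, 3 on each side of the limit, the 5 largest ATAC ratios and RNA changes (edgeR adjusted p under 0.05, mean CPM of at least 1) in each direction, up to 4 genes per list, up to 5 genes with several members, and Ncoa7 and Th. Starts came from GENCODE and sequences from RefSeq GRCm38.p6. RNA counts were tested with edgeR 4.0.16 (TMM, filterByExpr, all 5 libraries, Benjamini-Hochberg) in R 4.3.3, with DESeq2 1.42.0 and limma 3.58.1 as alternatives, and edgeR was tested on simulated data. Single-cell detection meant a mean above 0.1. The authors' own fold changes and p-values were not used.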

Additional observations from a re-analysis of the deposited data

How the results depend on the processing

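Ranking regions by the lowest, the median or the signal per base of the columns kept 336, 346 and 314 of the 354 members. Member counts past a ratio rose with a looser mark by construction: at 1.5-fold 42, 2 and 113, and at the lowest mark tried 148, 57 and 210, for 6-OHDA against sham, NDST3 against 6-OHDA and NDST3 against sham. Members chosen by the lowest column gave 0 and 4 at 2-fold in the first and last comparison, and members at the start of the named gene 0 and 0, with medians of 0.159 and 0.263. Dividing columns by their medians gave 1 member and a median of 0.265 for NDST3 against sham, and -0.0063 for NDST3 against 6-OHDA. Calls of members' genes in edgeR, 98 for 6-OHDA against sham and 40 for NDST3 against 6-OHDA, ranged without each replicate from 0 to 97 and from 0 to 36, and those of NDST3 against sham from 0 to 2. With the replicate block they were 17 and 0. The difference between the 2 sham libraries and that between the 2 NDST3-treated libraries had a correlation of -0.337 over 19300 genes. With a single difference in each group, this cannot show whether same-numbered libraries were paired. A crossed block, chosen after seeing the data, gave 100, 60 and 5. DESeq2 gave 73 for NDST3 against 6-OHDA and 8 for NDST3 against sham, and fitting only the 2 groups compared gave 0 for NDST3 against 6-OHDA; the cause was not tested. Members at the start of the named gene gave 49 and 18 calls, on fewer genes (133). Counts under the alternative fits are given without the share over all genes. None of the called genes named (23 and 15) changed direction, but with the block 14 and 15 of them lost their call, with limma 2 and 4, and with only the groups compared 2 and 15. H3K27ac counts were 40 with 50% of a region shared, 183 by table gene, 185 within 1 kb and 200 by start gene. Each ATAC group has 1 library, which limits all ratios to description.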

Other observations

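A further 45 regions of the ATAC table, all on the X chromosome, had a value in the 6-OHDA column alone of at most 207 tag units, and 1 of them reached the limit of 110.3. They could not enter the ranking.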
